A study of Mus musculus with 3 samples.

Results

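The chemokine system comprises the chemokine genes and the genes of their receptors, here all rows of the count table whose Entrez identifier maps to a mouse symbol beginning Ccl, Cxcl, Ccr or Cxcr with a digit, or to Xcl1, Xcr1, Cx3cl1, Cx3cr1 or Ackr1 to Ackr4. The rule found 60 of 24028 identifiers, namely 37 ligand genes and 23 receptor genes. They were measured by RNA-seq in skin papillomas, benign growths of the epidermis, from C57BL/6 mice given the carcinogen DMBA and then the tumour promoter TPA, as all groups were. Tg46 mice carry a transgene that drives galectin-7 from the keratin 14 promoter, and so in basal keratinocytes. Lgals7-/- mice lack galectin-7, a galactoside-binding protein of stratified epithelia, and wild-type mice express it from its own gene. Each genotype was represented by 1 library, made from 3 pooled tumours. No difference below therefore has a replicate check, no p-value is given, and the comparisons ask only how the libraries differed.

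Chemokines are small secreted proteins that bind to heparan sulphate on cell surfaces and matrix and guide migrating leukocytes. They are named by the spacing of their first cysteines (C, CC, CXC and CX3C) and act through G protein-coupled receptors of the matching name, while the atypical receptors of the Ackr genes bind chemokines without coupling to G proteins and remove or redistribute them. In skin, keratinocytes, endothelial cells, Langerhans cells and macrophages make chemokines, and phorbol esters such as TPA are known to induce several of them through NF-kappaB and AP-1.

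The deposited counts summed to 354499 in Tg46, 312600 in Lgals7-/- and 172011 in wild-type, low totals for a transcriptome. In CPM, the counts relative to library size, 0 counts allow a level of up to 8.95 in Tg46, 9.11 in Lgals7-/- and 17.4 in wild-type, that of 3 counts. These limits and the intervals below hold counting error alone, because reads with no molecular identifier need not be separate molecules. Counts given below are not scaled, and the same count is a higher CPM in wild-type than in the other libraries. Lgals7 itself held 4, 2 and 0 counts in Tg46, Lgals7-/- and wild-type, too few to bear on the labels. Keratinocyte markers were present in every library, with all 10 listed genes above 0 counts and 95, 81 and 20 counts at Krt14 in Tg46, Lgals7-/- and wild-type. In the same order the housekeeping genes Actb and Gapdh held only 13, 13 and 3 and 4, 5 and 0 counts. Both lay below Cxcr6, Ccr9 and Ackr4 in every library. Whether these counts rank genes by transcript abundance was not tested.

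Chemokine genes were thinly counted. The members' summed counts were 506 in Tg46, 489 in Lgals7-/- and 221 in wild-type, or 1510, 1486 and 1279 CPM. The median member held 5, 6 and 1 counts in Tg46, Lgals7-/- and wild-type, beside 7, 7 and 4 over all identifiers. Of the 60 members, 5 were at 0 in Tg46, 6 in Lgals7-/- and 25 in wild-type. With every library thinned to 172011 counts, 13.3% of members were at 0 in Tg46, 15% in Lgals7-/- and 41.7% in wild-type, beside 16.4%, 15.6% and 24.1% of all identifiers. At equal total counts the wild-type library thus had the most chemokine genes without reads, and also the most identifiers without reads. Ccl19 and Ccl21d, ligands of Ccr7 with near-identical copies elsewhere in the genome, were at 0 in all 3 libraries, and reads that matched several copies cannot be placed among them.

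Per kb of exon, 53 of 59 members with a gene model stood above the pooled level of 1482 chemosensory receptor genes in Tg46, 46 in Lgals7-/- and 29 in wild-type. Chemosensory genes (olfactory, vomeronasal and taste receptors) are known mainly from sensory organs, and whether any was expressed in these papillomas was not tested. Their pooled level is their summed counts over their summed exon length. That level was 2.35 CPM per kb in Tg46, 2.55 in Lgals7-/- and 3.22 in wild-type. Members had a median of 7.01 CPM per kb in Tg46, 7.02 in Lgals7-/- and 2.93 in wild-type, beside 6.73, 6.94 and 6.09 over all annotated genes. How many of all genes stood above the chemosensory level was not counted. The median over all annotated genes was above it in every library, so standing above it does not set the members apart. The wild-type median of the members was thus below the pooled chemosensory level of that library. Pooled in the same way, the members stood at 9.90 CPM per kb in Tg46, 9.68 in Lgals7-/- and 8.28 in wild-type. Above the chemosensory level in every library were 25 members. Whether counts near this level are expression was not tested.

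**Figure D1:**
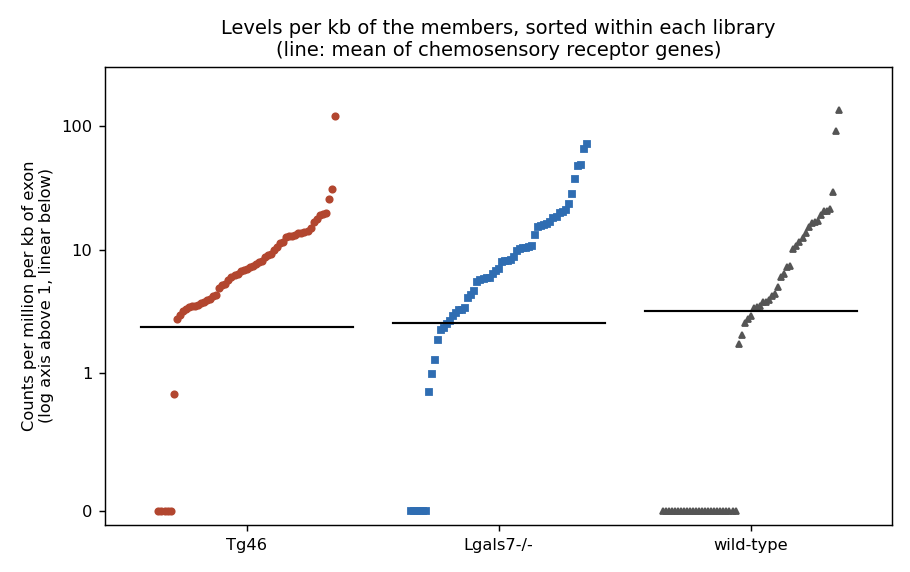
CPM per kb of exon (vertical axis, logarithmic above 1) of the 59 members with a gene model, sorted within the Tg46, Lgals7-/- and wild-type libraries, 1 point per gene. The line, titled a mean, is the pooled level of 1482 chemosensory receptor genes. Above it lie 53, 46 and 29 members in Tg46, Lgals7-/- and wild-type, and the share of all genes above it was not counted.

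Only 20 members reached 10 counts in at least 1 library and were compared, 33.3% of the members against 53.9% of all identifiers. They were 9 ligand and 11 receptor genes, and the other 28 ligands and 12 receptors held at most 9 counts anywhere. Ccr1 and Ccr6 lay just inside that limit, with a highest count of 10, and Ackr2, Cx3cl1 and Cx3cr1 just outside, with 9. A member could pass through the library where it was high, which favours a difference, so the counts of calls that follow describe the libraries and support nothing about the group. A call, higher or lower, needed a ratio of scaled counts, with 0.5 added to each, of at least 2-fold and an exact 95% interval without 1, and it compares 2 libraries, not conditions.

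In Tg46 relative to Lgals7-/-, the ligands Ccl3 and Cxcl12 were called lower and the receptors Ccr6 and Ccr7 higher. That is 2 of 20 members higher, beside 8.43% of the 12940 genes compared, and 2 lower, beside 7.73%, and both shares are near the background. The median log2 ratio of the 20 members was -0.21, beside -0.026 over all genes compared. In Lgals7-/- relative to wild-type, 5 of 20 members were called higher, beside 13.3% of all genes, and 0 lower, beside 13.7%. These were the ligands Ccl3, Ccl22 and Cxcl14 and the receptors Ccr10 and Cxcr5. In Tg46 relative to wild-type, the receptors Ccr4, Ccr6 and Ccr10 were called higher, 3 of 20 beside 13.7% of all genes, and 0 members lower, beside 13.9%. The medians against wild-type were 0.31 in Lgals7-/- and 0.39 in Tg46, beside 0.10 and 0.11 over all genes, and they were -0.014 and 0.25 where 0 counts were replaced by the limit of 3. Both comparisons share the wild-type library, so calls common to them are not independent. With 5 counts added instead of 0.5, 1 member (Ccl22) was called higher in Lgals7-/- and 0 members in Tg46 relative to wild-type. Tg46 over Lgals7-/- again had 2 called higher and 2 lower. Counts are added before scaling, which draws ratios over wild-type toward 0.52 and not 1. Under a filter of 20 counts over the 3 libraries, which Ccl3, Ccr6, Ccr7 and Cxcl14 do not pass, all 3 medians changed sign, to 0.030 in Tg46 over Lgals7-/-, -0.15 in Lgals7-/- over wild-type and -0.16 in Tg46 over wild-type.

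**Figure D2:**
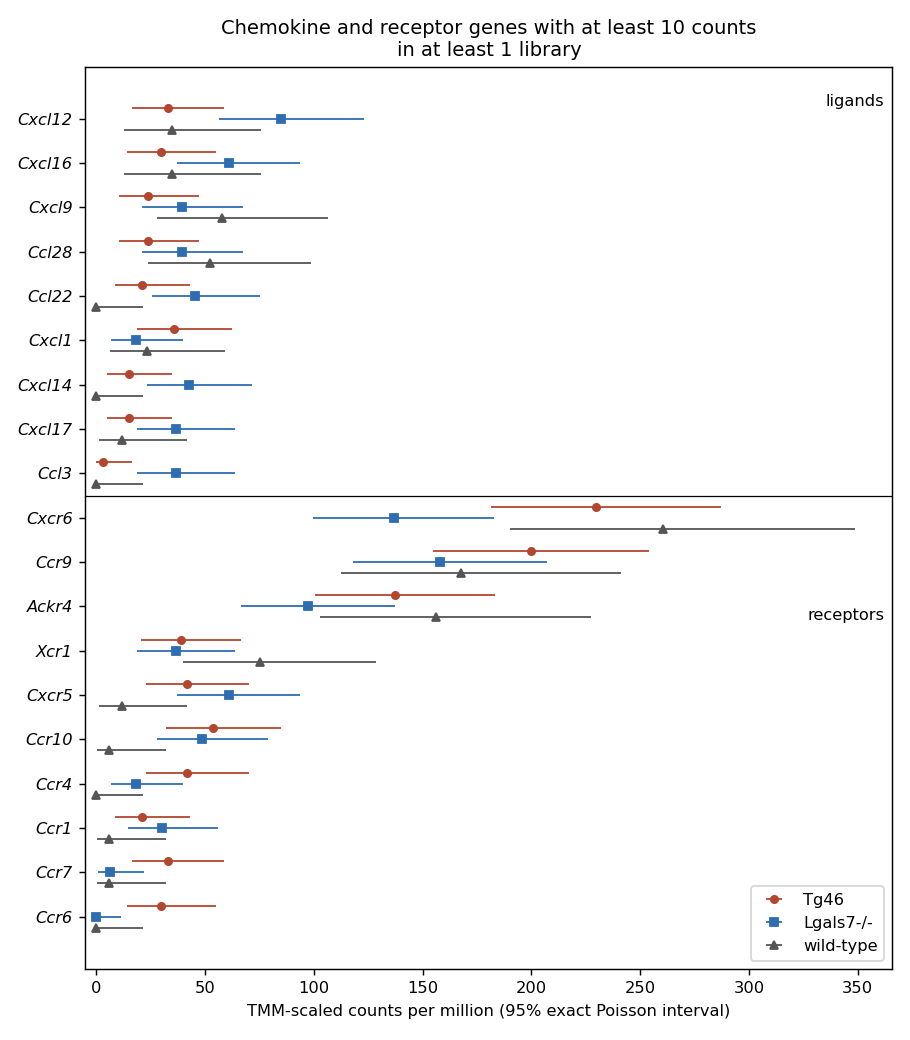
TMM-scaled CPM of 19 compared members (horizontal axis) in the Tg46, Lgals7-/- and wild-type libraries, with exact 95% Poisson intervals of the counts, ligands above and receptors below the line. Most members lie under 100 CPM, and Cxcr6 and Ccr9 lie furthest to the right in every library.

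Among the CC ligands, Ccl3 (Entrez 20302, chromosome 11, 83647843 to 83649378, minus strand, mm10), an inflammatory attractant of macrophages and T cells acting on Ccr1, held 1 count in Tg46 and 12 in Lgals7-/-, against 0 in wild-type. It was high in the Lgals7-/- library alone, 8.48-fold lower in Tg46 than in Lgals7-/- (95% interval 1.81 to 522). With wild-type set at the limit of 3 counts it was 2.10-fold higher in Lgals7-/- (interval of the counts from 1.46). Ccl22 (Entrez 20299, chromosome 8, 94745684 to 94751388, plus strand), made by dendritic cells and macrophages and acting on Ccr4, held 7 counts in Tg46 and 15 in Lgals7-/-, against 0 in wild-type. By that limit Ccl22 was 2.62-fold higher in Lgals7-/- than in the wild-type library (interval from 1.88). Tg46 over wild-type, 1.2-fold by the same limit, had an interval from 0.74, which includes 1, and was not called. Ccl17, its neighbour and the other ligand of Ccr4, held 2 counts in Tg46 and 0 in Lgals7-/-, against 8 in wild-type, under the limit for a comparison. Ccl28, an epithelial ligand of Ccr10, held 8, 13 and 9 counts in Tg46, Lgals7-/- and wild-type (23.9, 39.5 and 52.1 CPM). None of its ratios was called.

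Ccl3 lies in a cluster of CC ligand genes on chromosome 11 that holds 11 members. Their counts summed to 23 in Tg46 and 54 in Lgals7-/-, against 9 in wild-type, which is 68.6, 164 and 52.1 CPM. The sum was 2.39-fold lower in Tg46 than in Lgals7-/- (1.44 to 4.08) and 3.15-fold higher in Lgals7-/- than in the wild-type library (1.54 to 7.26), while Tg46 over wild-type was 1.32 (0.59 to 3.24). Of the 11 genes, 8 had a lower scaled level in Tg46 than in Lgals7-/-, beside 52.4% of all identifiers detected in either library. The exceptions were Ccl1, with 5 counts in Tg46 and 1 in Lgals7-/-, Ccl8, with 3 and 1, and Ccl7, with 1 and 0. Ccl4, an attractant of monocytes and T cells, held 3, 8 and 0 counts in Tg46, Lgals7-/- and wild-type, and Ccl6 held 2, 6 and 0. Ccl2, the monocyte attractant acting on Ccr2, held 2, 6 and 2, and Ccl11, the eosinophil attractant acting on Ccr3, held 1, 6 and 4. Without Ccl3 the cluster was 0.51 times as high in Tg46 as in Lgals7-/- and 2.45-fold higher in Lgals7-/- than in the wild-type library. The grouping by cluster was chosen after the values were seen.

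**Figure D3:**
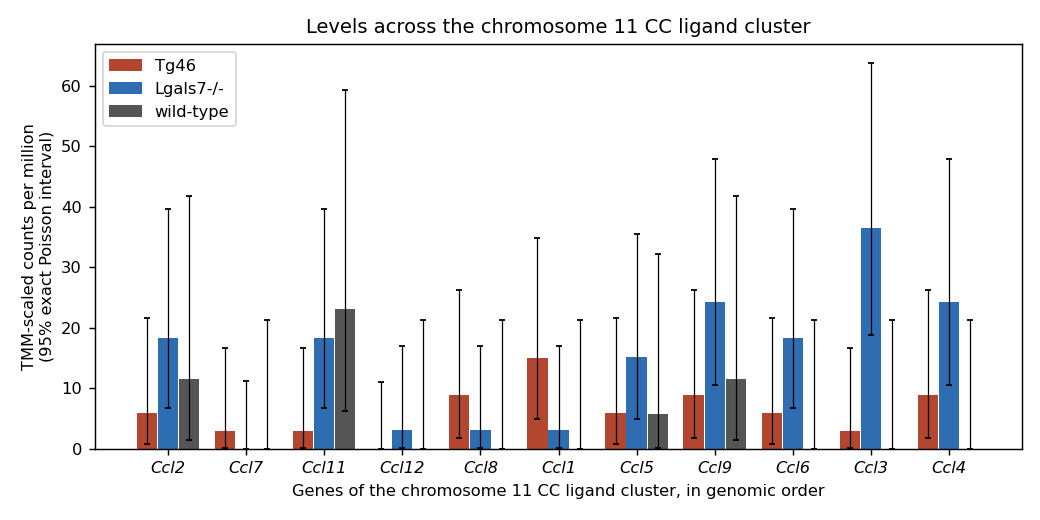
TMM-scaled CPM (vertical axis, with exact 95% Poisson intervals) of the 11 CC ligand genes of the chromosome 11 cluster in genomic order, in the Tg46, Lgals7-/- and wild-type libraries. Single genes have wide, mostly overlapping intervals, and Ccl3 in Lgals7-/- is the highest bar.

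Macrophage genes were set beside these ligands, because several of them are macrophage products. Lyz2, the lysozyme of myeloid cells, held 6 counts in Tg46 and 39 in Lgals7-/-, against 5 in wild-type. The 10 macrophage and monocyte markers summed to 454 CPM in Tg46 and 647 in Lgals7-/-, against 567 in wild-type. Of the 7 compared, 0 were called higher and 2 lower in Tg46 than in Lgals7-/-, beside 8.43% and 7.73% of all genes. These 2 were Lyz2 and Cd163, with 40, 80 and 43 counts at Cd163 in Tg46, Lgals7-/- and wild-type. Cd163 was also called lower in Tg46 than in wild-type, 2.08-fold (1.32 to 3.29). In Lgals7-/- over wild-type Lyz2 was called higher, 3.77-fold (1.61 to 13.3), and Cd163 was not called. The median log2 ratio of the 7 in Tg46 over Lgals7-/- was 0.17, opposite in direction to the sum. Adgre1, which encodes F4/80, held 17, 10 and 12 counts in Tg46, Lgals7-/- and wild-type, and the 1 marker at 0 was Ly6c2, in Tg46. The 10 T cell markers summed to 239, 283 and 191 CPM in Tg46, Lgals7-/- and wild-type, with Cd2 at 0 in Tg46, Cd3g at 0 in Lgals7-/- and Cd4 and Cd2 at 0 in wild-type. In bulk tumour RNA fewer cells of a type and less RNA per cell cannot be told apart, and the part of cell content in the ligand differences was not tested.

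Among the CXC ligands, Cxcl12 (Entrez 20315, chromosome 6, 117168535 to 117181368, plus strand), the stromal ligand of Cxcr4 and Ackr3, held 11 counts in Tg46 and 28 in Lgals7-/-, against 6 in wild-type. It was 2.52-fold lower in Tg46 than in Lgals7-/- (1.25 to 5.77). Lgals7-/- over wild-type was 2.30 (0.995 to 7.23) and was not called. Cxcl14 (Entrez 57266, chromosome 13, 56288643 to 56296811, minus strand), made constitutively by epidermis, held 5 counts in Tg46 and 14 in Lgals7-/-, against 0 in wild-type. Set against 3 counts in wild-type, Cxcl14 was 2.45-fold higher in Lgals7-/- (interval from 1.74). Its ratio of Tg46 to Lgals7-/- was 0.37 (0.099 to 1.03). Beside these, fibroblast markers summed to 594, 547 and 480 CPM and keratinocyte markers to 2432, 2084 and 1285 CPM in Tg46, Lgals7-/- and wild-type, with Lum and Thy1 at 0 in wild-type, and their part was not tested. Cxcl16, the transmembrane ligand of Cxcr6, held 10, 20 and 6 counts in Tg46, Lgals7-/- and wild-type, and Cxcl17, a mucosal chemokine, held 5, 12 and 2. In both the Lgals7-/- library was highest, yet no ratio was called. Cxcl16 exons overlap those of Zmynd15 on the other strand, which held 97, 61 and 30 counts in Tg46, Lgals7-/- and wild-type.

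The remaining CXC ligands did not share that order. Cxcl1, a neutrophil attractant acting on Cxcr2, held 12, 6 and 4 counts in Tg46, Lgals7-/- and wild-type. Cxcl9, an interferon-gamma-induced ligand of Cxcr3, held 8, 13 and 10 (23.9, 39.5 and 57.9 CPM). No ratio of Cxcl1 or Cxcl9 was called. The 9 CXC ligand genes on chromosome 5, which include Cxcl1, Cxcl2, Cxcl5, Cxcl9 and Cxcl10, summed to 149 CPM in Tg46, 118 in Lgals7-/- and 150 in wild-type. Their sum in Tg46 over Lgals7-/- was 1.26 (0.81 to 1.97). Of the C and CX3C ligands, Cx3cl1 held 9, 6 and 3 counts and Xcl1 1, 1 and 0 in Tg46, Lgals7-/- and wild-type.

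Cxcr6, Ccr9 and Ackr4 had the highest counts among the receptors in every library, and Xcr1 was the other receptor with at least 10 counts in wild-type. Cxcr6 (chromosome 9, 123806477 to 123811754, plus strand), the receptor of resident T and NK cells, held 77 counts in Tg46 and 45 in Lgals7-/-, against 45 in wild-type. It was the member with the highest level per kb of exon in every library, at 119 CPM per kb in Tg46, 70.8 in Lgals7-/- and 135 in wild-type. Cxcr6 in Tg46 over Lgals7-/- was 1.67 (1.15 to 2.48), and it was 1.91-fold lower in Lgals7-/- than in wild-type (1.23 to 2.95), both short of 2-fold although the intervals exclude 1. Ccr9, the gut-homing receptor for Ccl25, held 67, 52 and 29 counts in Tg46, Lgals7-/- and wild-type. Ackr4, a scavenger of Ccl19, Ccl21 and Ccl25, held 46, 32 and 27 (137, 97.2 and 156 CPM). Xcr1, a marker of cross-presenting dendritic cells, held 13, 12 and 13 (38.8, 36.5 and 75.2 CPM). These 4 genes made up 40.1% of the members' counts in Tg46 and 28.8% in Lgals7-/-, against 51.6% in wild-type, and were singled out after their values were seen. None of their ratios was called. NK cell markers, whose cells carry Cxcr6, summed to 143 CPM in Tg46 and 237 in Lgals7-/-, against 197 in wild-type, with Klrd1 and Klre1 at 0 in Lgals7-/- and Gzmb at 0 in wild-type, and their part was not tested.

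Strand is one limit on these levels. Cxcr6 lies within Fyco1, a gene of the opposite strand with 21, 24 and 15 counts in Tg46, Lgals7-/- and wild-type. Ackr4 lies within Acad11 and overlaps its exons, with 17, 40 and 18 counts at Acad11, and Ccr9 exons overlap 2 genes of the opposite strand. Of the 60 members 9 have such an exon overlap, beside 24.8% of all annotated genes. The use of strand in counting was not given in the sources used here. Reads within an overlap therefore cannot be told apart from those of the gene across.

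The receptors Ccr6, Ccr7 and Ccr4 had their highest counts in Tg46. Ccr6 (Entrez 12458, chromosome 17, 8236041 to 8258519, plus strand), the receptor for Ccl20 on Th17 and regulatory T cells, held 10 counts in Tg46 and 0 in Lgals7-/-, against 0 in wild-type. With the libraries at 0 set at 3 counts, Ccr6 was 3.27-fold higher in Tg46 than in Lgals7-/- (interval from 2.20). It was 1.72-fold higher than in the wild-type library (interval from 1.16). Ccr7 (Entrez 12775, chromosome 11, 99144199 to 99155077, minus strand), which directs dendritic cells and naive T cells to lymph nodes, held 11 counts in Tg46 and 2 in Lgals7-/-, against 1 in wild-type. Ccr7 was 4.52-fold higher in Tg46 than in Lgals7-/- (1.18 to 50.2). Its ratio of Tg46 to wild-type, 3.95 (0.82 to 244), was not called. Ccr4 (Entrez 12773, chromosome 9, 114490316 to 114505476, minus strand), a receptor of skin-homing T cells, held 14 counts in Tg46 and 6 in Lgals7-/-, against 0 in wild-type. Ccr4 was 2.41-fold higher in Tg46 than in the wild-type library set at 3 counts (interval from 1.71). Its ratio of Tg46 to Lgals7-/- was 2.19 (0.83 to 7.28).

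Dendritic and Langerhans cell markers are given beside these receptors, a list that itself holds Ccr7 and Xcr1. The 10 genes summed to 388 CPM in Tg46 and 301 in Lgals7-/-, against 313 in wild-type, with Cd209a at 0 in wild-type. H2-Ab1, a chain of MHC class II, held 13, 3 and 2 counts in Tg46, Lgals7-/- and wild-type, and Cd207, the langerin of Langerhans cells, held 2, 11 and 7. The part of these cells in the receptor differences was not tested.

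Ccr10 and Cxcr5 were low in wild-type and similar in the other libraries. Ccr10 (Entrez 12777, chromosome 11, 101172998 to 101175443, minus strand), the receptor of skin-homing T cells for Ccl27 and Ccl28, held 18 counts in Tg46 and 16 in Lgals7-/-, against 1 in wild-type. It was 6.36-fold higher in Tg46 than in the wild-type library (1.47 to 387) and 5.77-fold higher in Lgals7-/- than in the wild-type library (1.30 to 352). Ccr10 lies within Cntnap1 on the other strand, which held 34, 22 and 7 counts in Tg46, Lgals7-/- and wild-type. Cxcr5 (Entrez 12145, chromosome 9, 44511787 to 44526444, minus strand), the receptor for Cxcl13 on B cells and follicular helper T cells, held 14 counts in Tg46 and 20 in Lgals7-/-, against 2 in wild-type. Cxcr5 was 4.30-fold higher in Lgals7-/- than in the wild-type library (1.28 to 46.3). Its ratio of Tg46 to wild-type, 2.99 (0.83 to 32.7), was not called. Cxcr5 exons overlap those of Bcl9l, with 25, 16 and 4 counts in Tg46, Lgals7-/- and wild-type. The 8 B cell markers summed to 325, 304 and 434 CPM in the same order. The inflammatory receptor Ccr1 held 7, 10 and 1 counts in Tg46, Lgals7-/- and wild-type, and none of its ratios was called. Of the receptors under the limit, Cx3cr1 held 9, 5 and 0 counts in Tg46, Lgals7-/- and wild-type, Ackr2 7, 9 and 4, Ccr2 8, 5 and 4, Ccr3 8, 2 and 0, and Cxcr4 8, 4 and 2.

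**Figure D4:**
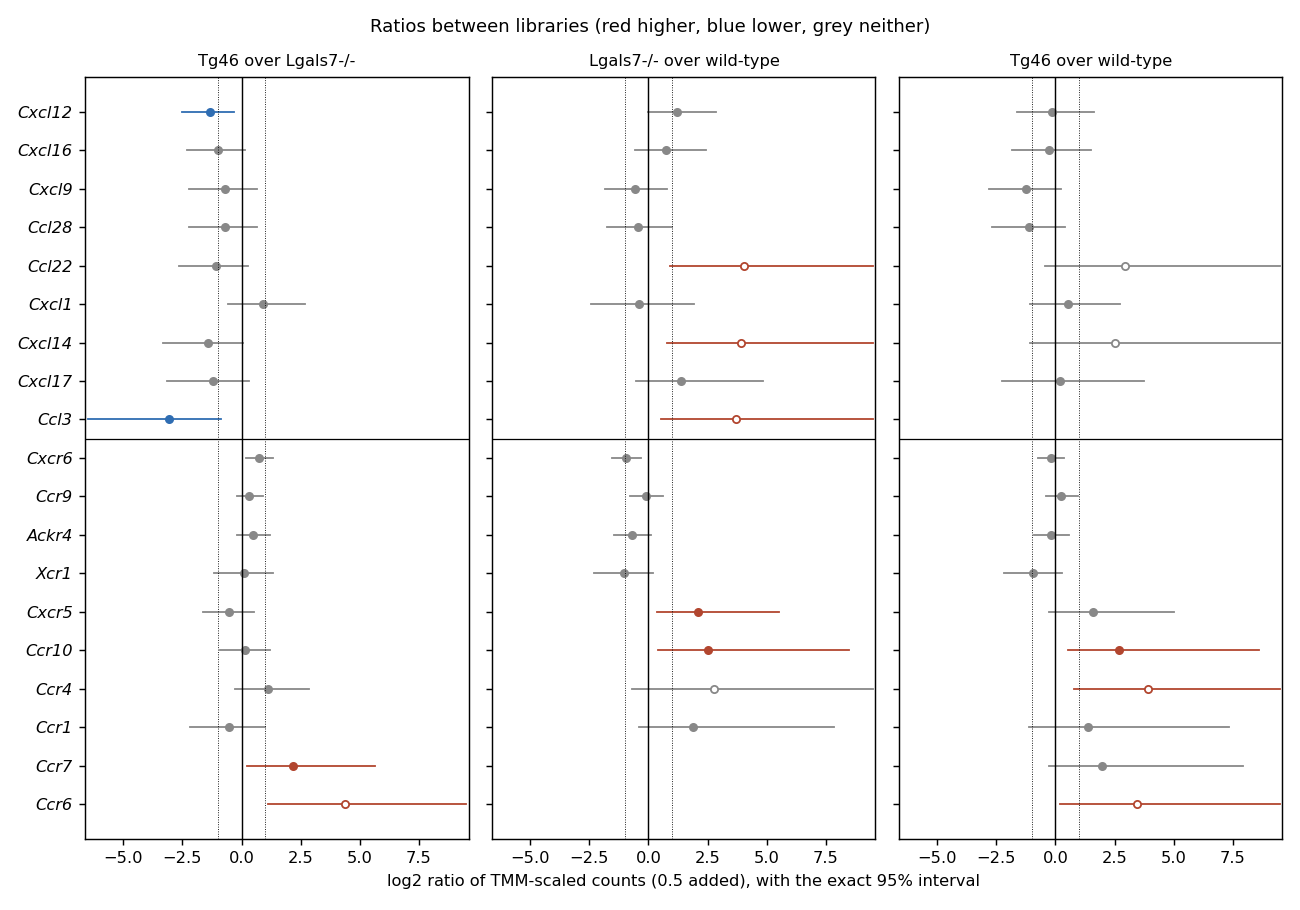
Log2 ratios of TMM-scaled counts with exact 95% intervals (horizontal axis, clipped at the edges) for 19 compared members, in Tg46 over Lgals7-/-, Lgals7-/- over wild-type and Tg46 over wild-type. Open points have 0 counts in 1 library and their position depends on the 0.5 counts added, dotted lines mark 2-fold, and no point is drawn where both libraries held 3 counts or fewer. Called genes are red (higher) or blue (lower).

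Summed by class, Tg46 had fewer ligand and more receptor counts than Lgals7-/-. Ligands summed to 451 CPM in Tg46 and 693 in Lgals7-/-, against 486 in wild-type, and made up 29.8%, 46.6% and 38% of the members' counts. The ligand sum was 1.54-fold lower in Tg46 than in Lgals7-/- (1.25 to 1.90) and 1.42-fold higher in Lgals7-/- than in the wild-type library (1.11 to 1.85), whereas Tg46 over wild-type was 0.93 (0.71 to 1.23). Receptors summed to 1059 CPM in Tg46 and 793 in Lgals7-/-, against 793 in wild-type. The receptor sum was 1.34-fold higher in Tg46 than in Lgals7-/- (1.14 to 1.57) and 1.34-fold higher than in the wild-type library (1.09 to 1.64). Without Cxcr6, Ccr9, Ackr4 and Xcr1, receptors summed to 454 CPM in Tg46 and 365 in Lgals7-/-, against 133 in wild-type, and Tg46 over Lgals7-/- was then 1.24 (0.97 to 1.59). Relative to wild-type this remainder was 3.41-fold higher in Tg46 (2.19 to 5.54) and 2.74-fold higher in Lgals7-/- (1.74 to 4.48). Of 23 receptor genes, 14 were higher in Tg46 than in Lgals7-/- (60.9%), and of the 34 ligand genes detected in either library 22 were lower (64.7%), beside 47.6% and 52.4% of all identifiers detected in either library. The 4 receptors left out are those with at least 10 counts in wild-type, so a higher remainder over wild-type follows from the split and shows nothing further. The intervals hold no variation between tumours.

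**Figure D5:**
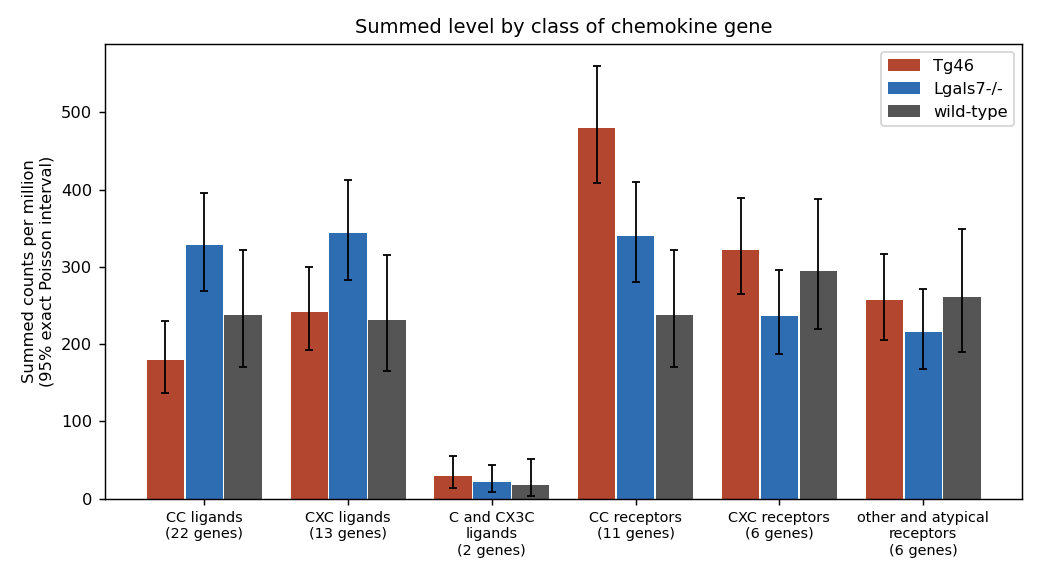
Summed CPM (vertical axis, with exact 95% Poisson intervals) of the 6 classes of members in the Tg46, Lgals7-/- and wild-type libraries, with the number of genes in each class. CC ligands are highest in Lgals7-/- (328 CPM, against 179 in Tg46) and CC receptors in Tg46 (480 CPM, against 340 in Lgals7-/-).

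Known ligands and receptors were set side by side as 25 pairs. Both partners exceeded 3 counts in 8 pairs in Tg46, 12 in Lgals7-/- and 2 in wild-type, libraries that differ in depth. The median over all identifiers was 7, 7 and 4 counts in the same order, and no share over pairs of other genes was counted. Ccl25 with Ccr9 and Cxcl16 with Cxcr6 were above 3 counts in all 3 libraries. Ccl3 with Ccr1, Ccl2 with Ccr2, Ccl27a with Ccr10, and Cxcl9 and Cxcl11 with Cxcr3 were so in Lgals7-/- alone, and Ccl24 with Ccr3 in Tg46 alone. Some rest on few counts, with Cxcr3 at 2, 4 and 0 and Ccl27a at 3, 8 and 3 in Tg46, Lgals7-/- and wild-type. Ccl20, the ligand of Ccr6, held 2 counts in Tg46 and 3 in Lgals7-/-, against 5 in wild-type, under the limit for a comparison. For Ccr7, whose Tg46 library held 11 counts, both listed ligands were at 0.

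RefSeq promoter windows (GRCm38.p6, 250 bases before to 50 after the start) were on hand for 45 members, and of the members called in any comparison the 4 whose windows hold a match to a searched motif are shown, so that the matches can be read in place. Capitals mark matches, on either strand, to the NF-kappaB site, the AP-1 site TGANTCA, the TATAA box and the interferon-response element GAAANNGAAA, each searched on its own, overlaps allowed.
Ccl3, chr11:83649329-83649628, minus strand: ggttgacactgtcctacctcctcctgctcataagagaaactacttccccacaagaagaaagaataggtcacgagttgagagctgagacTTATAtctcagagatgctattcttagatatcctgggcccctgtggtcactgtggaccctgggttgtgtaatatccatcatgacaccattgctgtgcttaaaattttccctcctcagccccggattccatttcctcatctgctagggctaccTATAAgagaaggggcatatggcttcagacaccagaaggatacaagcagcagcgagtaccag
Cxcl14, chr13:56296502-56296801, minus strand: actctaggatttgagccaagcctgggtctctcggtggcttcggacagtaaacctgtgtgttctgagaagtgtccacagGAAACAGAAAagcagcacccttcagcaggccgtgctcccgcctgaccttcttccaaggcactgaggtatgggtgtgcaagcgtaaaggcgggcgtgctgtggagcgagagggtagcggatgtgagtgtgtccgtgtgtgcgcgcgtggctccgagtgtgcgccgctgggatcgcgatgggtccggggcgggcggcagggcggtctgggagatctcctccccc
Ccr4, chr9:114496495-114496794, minus strand: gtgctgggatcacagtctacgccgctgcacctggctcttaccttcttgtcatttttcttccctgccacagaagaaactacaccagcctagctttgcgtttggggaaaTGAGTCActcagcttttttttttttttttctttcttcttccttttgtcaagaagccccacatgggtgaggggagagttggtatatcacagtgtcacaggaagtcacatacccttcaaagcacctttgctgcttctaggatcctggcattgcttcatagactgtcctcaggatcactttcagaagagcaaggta
Ccr6, chr17:8242276-8242575, plus strand: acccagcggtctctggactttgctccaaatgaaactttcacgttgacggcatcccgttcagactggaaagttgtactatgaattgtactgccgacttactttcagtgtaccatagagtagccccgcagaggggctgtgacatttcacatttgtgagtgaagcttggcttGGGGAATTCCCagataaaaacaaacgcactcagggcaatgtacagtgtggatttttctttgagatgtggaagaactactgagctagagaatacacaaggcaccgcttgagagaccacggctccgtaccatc
Ccl3 holds a TATAA match starting 11 bases before the start and a reverse one further up, Cxcl14 holds 1 interferon-response match, and Ccr4 holds 1 AP-1 match 143 bases before the start. In the second of its windows Ccr6 holds overlapping NF-kappaB matches on both strands, whereas its first window holds 0 matches. Over the members' 52 windows, 23.1% held an NF-kappaB match, against 8.46% of all 32851 windows, and the AP-1 site was in 19.2% against 7.81%. TATAA was in 36.5% against 24.9%, and the interferon-response element in 5.77% against 3.44%. Ccr1 and Cxcl1 are the other compared genes with an NF-kappaB match, and Ccl28 and Cxcl9 those with an AP-1 match. A match describes these letters and does not show that a factor binds.

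Genes around the chemokine system were counted from 3 lists. In Tg46 over Lgals7-/-, 5 of 19 compared inducer genes (cytokines, their receptors and NF-kappaB members) were called higher and 0 lower, beside 8.43% and 7.73% of all genes, with a median log2 ratio of 0.23 beside -0.026 over all genes. Il17ra, the IL-17 receptor chain, was 3.55-fold higher (1.49 to 11.3), with 23 counts in Tg46 and 6 in Lgals7-/-. Hif1a and Rgs16 have an opposite-strand exon overlap. Ifngr2 was 3.13-fold higher (1.18 to 11.6), Hif1a 2.83-fold higher (1.98 to 4.17) and Ikbkb, the kinase that releases NF-kappaB, 2.49-fold higher (1.46 to 4.56). Beside the same shares, 1 of 28 genes of receptor signalling was called higher and 5 lower, with a median of -0.22. Rgs16, a brake on G proteins, was 4.35-fold higher (1.39 to 26.5), while Pik3r5, a subunit of the leukocyte PI3 kinase gamma, was 3.73-fold lower (1.31 to 16.7). Of 16 genes that modify or resemble chemokines, 0 were called higher and 1 lower, both under those shares of all genes, namely the neutrophil collagenase Mmp8, with a median of 0.15.

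In Lgals7-/- over wild-type, 6 of 28 signalling genes were called higher and 2 lower, beside 13.3% and 13.7% of all genes, among them Pik3cg, the catalytic PI3 kinase gamma, at 8.92-fold higher (2.15 to 539). Of 19 inducers 2 were called higher and 1 lower, and of 16 modifiers 2 higher and 1 lower. The median log2 ratios were 0.41, 0.032 and 0.82 for signalling, inducers and modifiers, beside 0.10 over all genes, and 0.41, 0.021 and 0.50 where 0 counts were replaced by the limit of 3. In Tg46 over wild-type, 4 of 28 signalling genes were called higher and 0 lower, 7 of 19 inducers higher and 3 lower, and 5 of 16 modifiers higher and 1 lower, beside 13.7% and 13.9% of all genes, and the share of signalling genes called higher is near that background. Their medians were 0.15, 0.46 and 1.003, beside 0.11 over all genes, and 0.074, 0.46 and 0.77 with that replacement. Nfkb2, an NF-kappaB subunit whose exons overlap those of Psd on the other strand, held 20 counts in Tg46 and 10 in Lgals7-/-, against 0 in wild-type.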

How the data were processed

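RNA of 3 pooled papillomas per genotype was extracted with TRIzol and RNeasy columns and made into Illumina libraries, per the labels' protocols. The authors deposited whole-number read counts per Entrez identifier, and the submitters' processing notes name the mm10 build. Aligner, counting tool and use of strand were not given in the sources used here. Symbols and positions came from RefSeq (GRCm38.p6), matching 23968 of 24028 identifiers, and exon lengths and overlaps from GENCODE (GRCm38).

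Scaling used TMM factors of edgeR 4.0.16 in R 4.3.3 (0.945 for Tg46, 1.05 for Lgals7-/- and 1.004 for wild-type), computed over the 12940 genes that reached 10 counts in any library. Ratios carry exact Clopper-Pearson 95% intervals of the pair of counts, and sums exact Poisson intervals. Against 0 counts a fold sets that library at 3 counts. It leaves out counting error in the other library, so the lower end of the interval stands beside it. No fold is printed where both hold 3 or fewer. With 1 library per genotype no edgeR quasi-likelihood test was possible. Intervals and calls were checked on simulated Poisson counts with known scaling and no variation between tumours, so the check covers the calculation alone. Changes were planted only in genes with expected counts of at least 10 in both libraries, more than most members held. Named genes are the compared members, of which 1 is not reported here by name and stays in the counts and sums, the highest members of each class and up to 4 called genes per list. Outside that rule, Lgals7, Actb, Gapdh, host genes, cell type markers and Nfkb2 were named after their values were seen. So were members of the chromosome 11 cluster and ligands of compared receptors. The members, lists and tests were chosen with earlier results of these data known. The alternatives tried were size factors of DESeq2 1.42.0, total counts, other filters, 5 added counts, fold alone, members with no opposite-strand exon and libraries thinned to 172011 counts. The scripts ran in Python 3.11.15 with pandas 2.3.3, scipy 1.17.1 and numpy 2.4.6.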

Additional observations from a re-analysis of the deposited data

How the results depend on the processing

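No paired analysis was possible because only 1 library stands for each genotype, and for that reason no replicate could be left out. Counts of called members are given beside those reported. In Tg46 over Lgals7-/- (2 higher, 2 lower), a filter of 20 counts over the 3 libraries, which Ccr6, Ccr7 and Ccl3 do not pass, gave 0 higher and 1 lower. Thinned libraries gave 1 and 1, total counts 4 lower and fold alone 5 lower. In Lgals7-/- over wild-type (5 higher, 0 lower) that filter gave 3 higher, 5 added counts 1 higher, fold alone 9 higher and 1 lower, and no filter 2 lower (Ccl17 and Cxcl2). In Tg46 over wild-type (3 higher, 0 lower), 5 added counts gave 0 higher, fold alone 8 higher and 2 lower, and no filter 1 lower (Ccl17). The members' median log2 ratio changed sign with the 20-count filter in Tg46 over Lgals7-/- (0.030 from -0.21), Lgals7-/- over wild-type (-0.15 from 0.31) and Tg46 over wild-type (-0.16 from 0.39). It also did so in thinned libraries in Tg46 over Lgals7-/- (0.0038) and with 5 added counts in Tg46 over wild-type (-0.13). The filter and the thinning test fewer members. Added counts enter before scaling, so ratios over wild-type are drawn toward 0.52, their value at 0 counts in both libraries, and not 1. How much of the change with 5 added counts this makes up was not tested. Total counts moved the median over all genes by -0.16 on the log2 scale in Tg46 over Lgals7-/-. All 240 recomputed ratios of compared members stayed within their intervals, as did the sums of ligands, receptors and the chromosome 11 cluster under the scalings, thinning and omission of the largest member, alternatives chosen after the values were seen. At these depths a member at 0 counts could still lie at up to 17.4 CPM in wild-type.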

Other observations

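Platelet chemokines carry other symbols and fall outside the rule for members. Ppbp, which encodes Cxcl7, held 4 counts in Tg46 and 1 in Lgals7-/-, against 0 in wild-type, and Pf4, which encodes Cxcl4, held 2 and 0, against 1. Both were under the limit for a comparison.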
